A study of Sus scrofa with 15 samples.

Results

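Levels of 10 named genes of apelin signalling, proton sensing and blood vessels (APLN, APLNR, GPR4, VEGFA, KDR, FLT1, PECAM1, CDH5, TEK and ESM1) were taken by gene symbol from a table of 30476 genes in piglet testis. Of these, 9 were in the table and all 9 passed the expression filter, and APLNR, the gene of the apelin receptor, was not analysed here. The genes were chosen by name when the log2 fold changes of the formula diets relative to Sow were already known, in which APLN and GPR4 stood among the genes called. Differences from Sow are therefore given as a description: which genes passed the calling rule there is stated beside the share of all genes that did, and nothing is supported with it. Results rest only on tests among the formula diets. The formula libraries of these tests also entered the known comparisons, so the tests share libraries with that choice although they use none from Sow.

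RNA of the whole testis was sequenced from male Dutch Landrace Duroc piglets killed on postnatal day 21, with 3 libraries in each of 5 diet groups. All piglets suckled until day 2, were then housed singly and drank from bowls either bought sow milk (Sow) or a formula made from cow's milk (Milk) or from soy (Soy). Both remaining groups had the cow's milk formula to which 17-beta-estradiol at 2 mg/kg/d (M + E2) or genistein, the main soy isoflavone, at 84 mg/L (M + G) was added. The study asked whether soy formula or genistein acts on the developing testis as estradiol does. Milk is thus the reference for the added compounds, whereas Sow differs from every other group in the whole feed, and no group received estradiol or genistein in sow milk. In the column names 1 Sow and 1 Soy library carry no number, and they are called Sow unnumbered and Soy unnumbered.

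Apelin is a secreted peptide that acts on a G protein-coupled receptor of endothelial cells, and it is made by growing vessels. GPR4 is a G protein-coupled receptor that is activated by protons and is found mainly in endothelium. Vessel growth is driven by VEGFA through the receptor tyrosine kinase KDR, while FLT1 binds the same ligand tightly and can act as a decoy. PECAM1 and CDH5 (VE-cadherin) hold endothelial cells together, TEK is the receptor for angiopoietins, which steady vessels, and ESM1 is secreted by sprouting tip cells. In the testis, vessels run in the interstitium among the Leydig cells and carry hormones and nutrients to and from the tubules.

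Depth was alike across diets: the reads assigned to genes numbered 6097552 to 9488579 a library, with 8198038 as the median, and no pair of libraries had identical counts. Levels are given as CPM, reads per 1000000 after TMM scaling for library size, without a correction for gene length, so that they are compared between diets and not between genes. Markers of the testis cell types were read in all diets, with CYP17A1 of Leydig cells at 7534 CPM, INHA of Sertoli cells at 1027 CPM and KIT of germ cells at 146 CPM on average over the 15 libraries. Summed Leydig cell markers were lower in Milk 2 (12472 CPM) than in Milk 1 and Milk 3 (27073 and 25274 CPM). Sertoli cell markers were also lower in Milk 2, at 1381 CPM against 2258 and 2642 CPM. In each of Milk 2, Soy 3 and M + G 2 the summed level of 7 peritubular and fibroblast markers was 30402 to 35787 CPM, against at most 14678 CPM in the other 12 libraries. The summed level of 14 mural cell markers was 3103 to 4984 CPM in these 3 libraries and at most 1539 CPM in the others. Values without these 3 libraries are given below for some comparisons of formula diets and some gene lists, and for the differences from Sow in a paragraph of their own. In bulk tissue, fewer cells of a type and less RNA per cell cannot be told apart.

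APLN (ENSSSCG00000048443, chromosome X from 106236746 to 106246563 in the RefSeq annotation of Sscrofa11.1), which encodes apelin, was lowest in Sow. The Sow libraries had 30.4, 35.5 and 29.0 CPM and the Soy libraries 55.9, 68.0 and 57.7 CPM. In Milk the levels were 79.2, 77.0 and 88.5 CPM, in M + G 100.3, 79.8 and 93.3 CPM, and in M + E2 75.9, 151 and 92.2 CPM. All 12 formula libraries lay above all 3 Sow libraries. From high to low the means were 106 ± 39.7 CPM in M + E2, 91.1 ± 10.4 in M + G, 81.6 ± 6.12 in Milk, 60.5 ± 6.54 in Soy and 31.6 ± 3.42 in Sow (SD, n = 3). In this order M + E2 overlapped with M + G, and M + G with Milk. The Soy libraries all lay below those of Milk, M + E2 and M + G, and above those of Sow. The wide spread in M + E2 came from M + E2 2, at 151 CPM.

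GPR4 (ENSSSCG00000037184, chromosome 6 from 51968310 to 51979931), the proton-sensing receptor, was also lowest in Sow, but its order among the formula diets was another. It was read at low depth, with 16 to 119 reads per library. The Sow libraries had 4.57, 2.34 and 3.23 CPM. Levels of 7.09, 7.56 and 9.84 CPM were read in Milk, of 6.97, 8.44 and 7.98 CPM in Soy, of 10.98, 9.20 and 8.31 CPM in M + E2 and of 12.8, 12.4 and 11.13 CPM in M + G. All formula libraries were above all Sow libraries. M + G had the highest mean (12.1 ± 0.897 CPM), followed by M + E2 (9.497 ± 1.36), Milk (8.17 ± 1.47), Soy (7.80 ± 0.754) and Sow (3.38 ± 1.13). The lowest M + G library was above the highest of M + E2 by little, 11.13 against 10.98 CPM, whereas the ranges of M + E2, Milk and Soy overlapped.

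**Figure D1:**
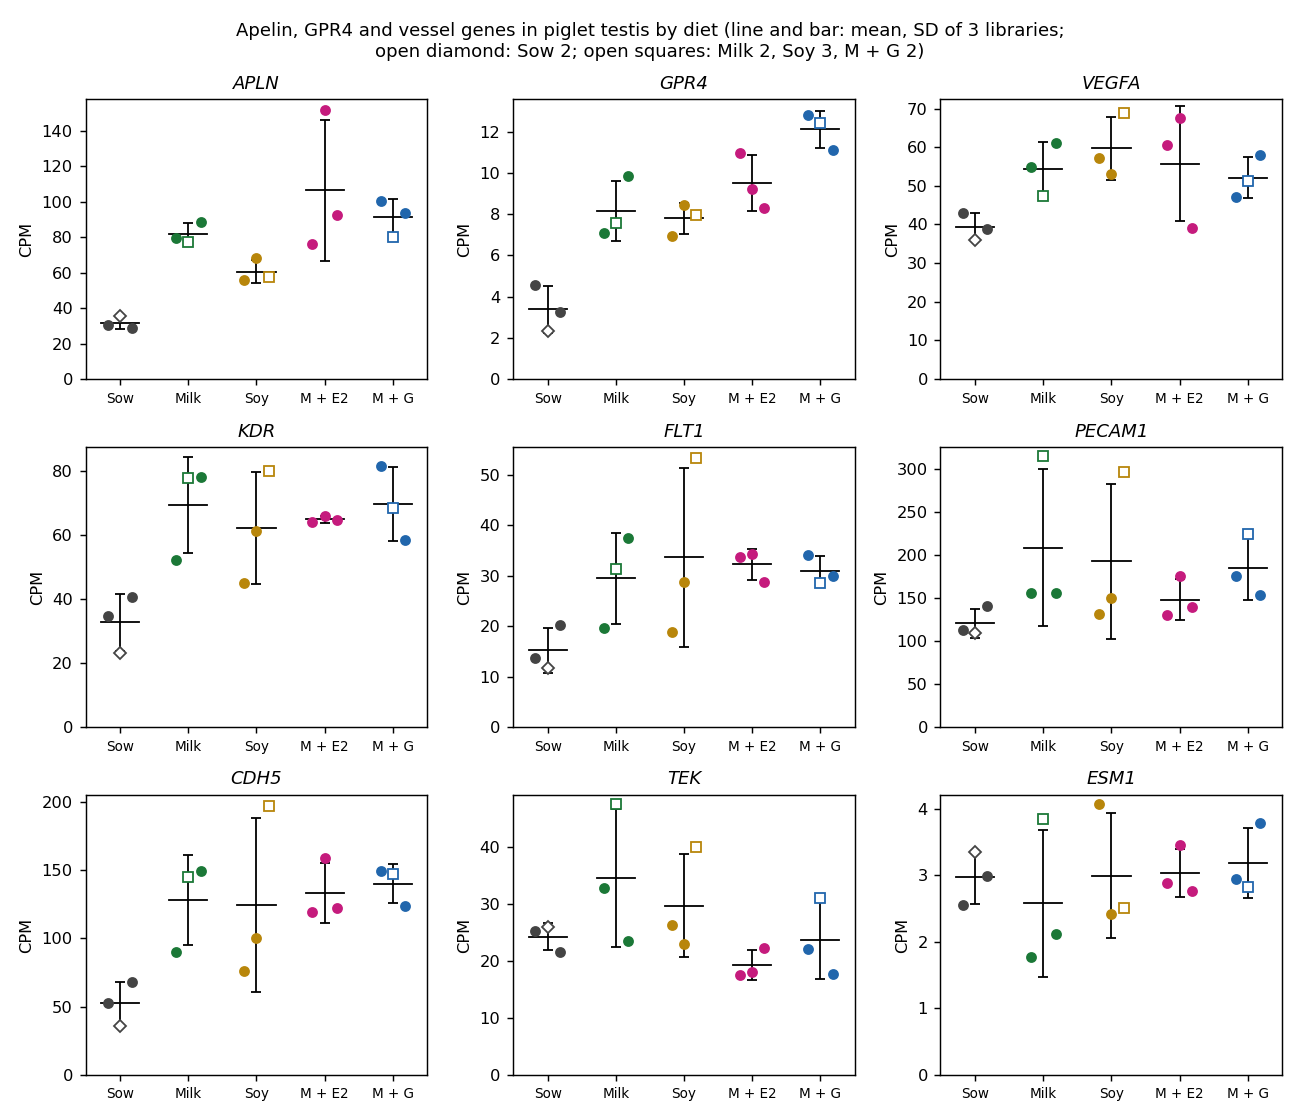
Levels of the 9 genes in CPM (vertical axes, linear from 0) in each of the 15 testis libraries by diet, with the mean and SD of 3 libraries; the open diamond is Sow 2 and the open squares are Milk 2, Soy 3 and M + G 2. In APLN, GPR4, KDR and CDH5 the 12 formula libraries lie above the 3 Sow libraries, and in PECAM1 and TEK the open squares are the highest of their diets.

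In the VEGF axis, the ligand had smaller log2 fold changes relative to Sow than its receptors, a difference that was not tested. VEGFA (ENSSSCG00000001695, chromosome 7 from 38746393 to 38762282) had 43.0, 35.9 and 38.9 CPM in Sow, and 11 of the 12 formula libraries lay above these, between 47.2 and 68.8 CPM. The exception was M + E2 3 at 39.1 CPM. Diet means from high to low were 59.7 ± 8.12 CPM (Soy), 55.7 ± 14.9 (M + E2), 54.5 ± 6.96 (Milk), 52.2 ± 5.42 (M + G) and 39.3 ± 3.58 (Sow). The 4 formula diets overlapped with each other.

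KDR (ENSSSCG00000008844, chromosome 8 from 41809116 to 41856379), the main signalling receptor of VEGFA, had 34.6, 23.1 and 40.6 CPM in Sow. The formula libraries ranged from 45.0 CPM (Soy unnumbered) to 81.6 CPM (M + G 1), with a median of 65.3 CPM, and all were above Sow. The M + E2 libraries stood close together at 63.9, 65.9 and 64.7 CPM, while those of Milk ran from 52.2 to 78.2 CPM and those of Soy from 45.0 to 79.9 CPM. FLT1 (ENSSSCG00000009320, chromosome 11 from 5620698 to 5797095), the decoy receptor, had 13.7, 11.7 and 20.2 CPM in Sow. Here 10 of 12 formula libraries were above Sow, with Milk 1 (19.7 CPM) and Soy unnumbered (18.8 CPM) inside its range, and the highest value was 53.3 CPM in Soy 3. ESM1 (ENSSSCG00000016900, chromosome 16 from 34184255 to 34193877), the tip cell product, did not separate the diets. It had 12 to 34 reads per library, and 4 formula libraries lay above the Sow range of 2.56 to 3.36 CPM and 4 below it.

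CDH5 (ENSSSCG00000035772, chromosome 6 from 27108560 to 27142145), the adhesion molecule of endothelial junctions, had 52.9, 36.1 and 67.9 CPM in Sow. All formula libraries were higher, with 90.3, 145 and 149 CPM for Milk and 76.1, 100.02 and 197 CPM for Soy. The M + E2 libraries had 119, 159 and 122 CPM, and those of M + G 149, 147 and 124 CPM. The formula diets overlapped with each other, and the widest spread was that of Soy. PECAM1 (ENSSSCG00000017277, chromosome 12 from 14667643 to 14723296), a further junction protein, had 112, 109 and 140.0 CPM in Sow, and 9 of 12 formula libraries were above this range. Its highest levels were 314 CPM in Milk 2, 296 CPM in Soy 3 and 224 CPM in M + G 2, the libraries that were high in fibroblast and mural markers, and the other 9 formula libraries had 129.6 to 176 CPM. The part of these markers in the level of PECAM1 was not tested. TEK (ENSSSCG00000005122, chromosome 1 from 195938177 to 196052294), the angiopoietin receptor, showed the same 3 libraries as the highest of their diets, at 47.6, 40.0 and 31.2 CPM. Only 5 formula libraries were above the Sow libraries (25.3, 26.0 and 21.7 CPM), and 3 were below: M + E2 1, M + E2 2 and M + G 3 at 17.6, 18.02 and 17.7 CPM.

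Over all 15634 genes tested, 6.22% had all 12 formula libraries above all 3 Sow libraries and 7.57% had them all below. Of the vessel genes described here 4 were above in this way (APLN, GPR4, KDR and CDH5) and 0 below. Since comparisons with Sow were known when the genes were named, nothing is read from this count.

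Log2 fold changes relative to Sow came from 1 fit of 14 libraries without Sow 2, so that Sow has 2 libraries. The 4 comparisons share these Sow libraries. For APLN the log2 fold change was 1.77 ± 0.25 (SE) for M + E2, 1.58 ± 0.25 for M + G, 1.42 ± 0.25 for Milk and 1.02 ± 0.25 for Soy, that is, 3.42-, 2.99-, 2.67- and 2.02-fold. For GPR4 it was 1.60 ± 0.25 for M + G, 1.21 ± 0.25 for M + E2, 1.02 ± 0.25 for Milk and 0.99 ± 0.25 for Soy, between 1.99- and 3.03-fold. The value of APLN was largest in M + E2, but without M + E2 2 the log2 difference between M + E2 and M + G was −0.14. That of GPR4 was largest in M + G. CDH5 was near 2-fold in each diet (from 1.04 in Milk and Soy to 1.18 in M + G, SE 0.35). Values for KDR lay between 0.72 and 0.85 (SE 0.24) and for FLT1 between 0.75 and 0.98 (SE 0.37). VEGFA was between 0.31 and 0.53 (SE from 0.22 to 0.23), which is 1.24- to 1.45-fold. These values of the ligand were below those of both receptors in every diet. PECAM1 ran from 0.16 ± 0.37 in M + E2 to 0.68 ± 0.37 in Milk, and TEK from −0.35 ± 0.32 in M + E2 to 0.52 ± 0.32 in Milk. ESM1 lay between −0.14 and 0.16 (SE about 0.36).

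**Figure D2:**
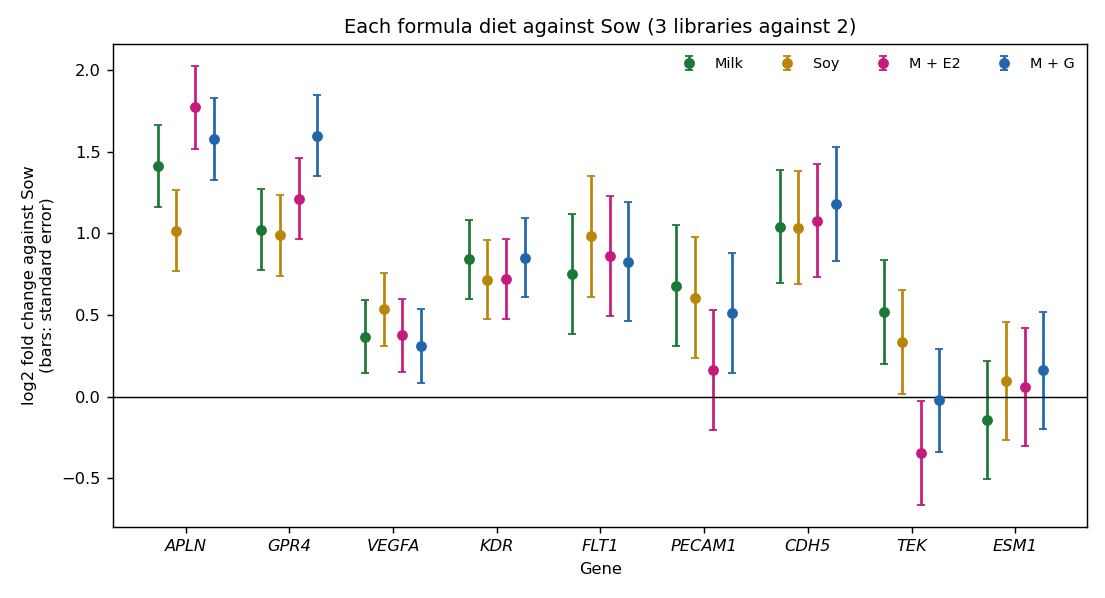
Log2 fold change of each gene in each formula diet relative to Sow (3 libraries against 2, bars are the standard error), from a fit of 14 libraries without Sow 2. APLN, GPR4 and CDH5 lie near or above 1 in all 4 diets, TEK in M + E2 lies at −0.35, and ESM1 lies around 0.

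Genes that changed at least 2-fold with a p of at most 0.05 in edgeR's quasi-likelihood test, adjusted by Benjamini-Hochberg over all genes, were called. Relative to Sow, APLN and GPR4 were called higher in M + E2, where 5% of all genes were called (1.44% higher), and in M + G, where 0.0576% were called (0.0192% higher). By edgeR's test 0 of the 9 genes were called in Milk, where 0.0192% of all genes were called (0.0064% higher), and in Soy, where 0.0128% were (0% higher). At an unadjusted p under 0.05 in edgeR's test there were 4 of the 9 in Milk (12.1% of all genes), 6 in Soy (15%), and 5 in each of M + E2 (33.8%) and M + G (23.6%). In Milk and in Soy, DESeq2's Wald test called APLN (0.205% and 0.211% of all genes) and so did edgeR's exact test (0.124% and 0.367%). With Sow 2 put back the calls were APLN in Milk, 0 genes in Soy, 4 in M + E2 (APLN, GPR4, CDH5 and FLT1) and 5 in M + G (the same 4 and KDR), while 0.0587%, 0.0261%, 18.1% and 10.3% of all genes were called. The count moved with the share of all genes called when single libraries were left out. In M + E2 it was 5 without Sow 3 (21.3% of all genes called) and 1 (APLN) without any 1 of the M + E2 libraries, Soy 2, M + G 1 or M + G 3 (0.0385% to 0.288%). In M + G it was 4 without Sow unnumbered (8.32%), 5 without Sow 3 (13%), 1 without Milk 2, M + E2 1 or M + E2 2 (0.0321% to 0.0644%), and 0 without any 1 of the M + G libraries, Milk 1, Soy 2 or M + E2 3 (0.00642% to 0.0258%). In Milk, APLN was called without M + E2 2 (0.0193%). These calls use the contrast by which the genes were known, and nothing further is read from them.

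Among the 4 formula diets, the differences of APLN and GPR4 were smaller than those from Sow, while those of TEK reached −0.86 on the log2 scale. In the 6 comparisons of these diets (Soy, M + E2 and M + G against Milk, Soy against M + E2 and M + G, and M + E2 against M + G) 0 of 9 genes were called by edgeR's quasi-likelihood test. The share of all genes called was 0.147% in Soy against M + E2 and 0% in the other 5. At an unadjusted p under 0.05 in edgeR's test there were 0 of the 9 in Soy against Milk (2.44% of all genes) and in M + E2 against M + G (7.01%). There was 1 of the 9 in M + E2 against Milk (17.7%) and in M + G against Milk (2.6%), and there were 2 in Soy against M + E2 (13%) and in Soy against M + G (3.65%). DESeq2's Wald test and edgeR's exact test also called 0 of the 9 in each. Libraries did not overlap between the diets for 1 gene in Soy against Milk (4.62% of all genes), M + E2 against Milk (17.5%), M + G against Milk (4.66%) and M + E2 against M + G (19.2%), and for 2 in Soy against M + E2 (20.6%) and Soy against M + G (7.89%). These genes were APLN, GPR4 or TEK in each case, while the other 6 overlapped in all 6 comparisons. A joint test for any difference among the 4 diets passed at an adjusted p of 0.05 for 0 of the 9 and for 0.0192% of all genes. Its smallest p-values were 0.0224 for APLN (adjusted p = 0.484), 0.0334 for GPR4 (adjusted p = 0.498) and 0.0427 for TEK (adjusted p = 0.526, edgeR), where 9.08% of all genes had an unadjusted p under 0.05. The ratio of the highest to the lowest formula mean was 1.76 for APLN, 1.56 for GPR4 and 1.79 for TEK, and from 1.12 to 1.41 for the other 6 genes.

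APLN was lower in Soy than in M + E2 in all libraries, with a log2 difference of −0.76 ± 0.21 (95% interval −1.21 to −0.30). The adjusted p was 0.179 in edgeR's test. Without M + E2 2, the library at 151 CPM, the difference was −0.42, and without M + E2 1 it was −0.93. Against M + G, Soy was lower by a log2 difference of −0.56 ± 0.21 (interval −1.02 to −0.11, edgeR adjusted p = 0.999), and against Milk the difference was −0.40 ± 0.21 (interval −0.86 to 0.06). Estradiol added to cow's milk formula was accompanied by a log2 difference of 0.36 ± 0.21 in APLN (interval −0.10 to 0.81, and 0.02 without M + E2 2) and genistein by 0.16 ± 0.21 (interval −0.29 to 0.62). A change of 2-fold lies outside both of these intervals.

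In M + G, GPR4 was higher than in Milk in all libraries, by a log2 difference of 0.58 ± 0.20 (interval 0.13 to 1.02), with an adjusted p of 0.940 in edgeR's test. Soy was lower than M + G in all libraries, with a difference of −0.61 ± 0.20 (interval −1.05 to −0.17, edgeR adjusted p = 0.999). M + E2 differed from Milk by 0.19 ± 0.21 (interval −0.26 to 0.64), and Soy from Milk by −0.03 ± 0.21 (interval −0.48 to 0.41). M + E2 lay below M + G in all libraries, with a difference of −0.39 ± 0.20 (interval −0.82 to 0.05).

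Of the 9 genes, TEK differed most from Milk. M + E2 was below Milk in all libraries, with a log2 difference of −0.86 ± 0.29 (interval −1.48 to −0.25), and the adjusted p was 0.207 in edgeR's test. This difference rested on single Milk libraries: it was −0.58 without Milk 2, and without Milk 3 it was −1.08 and called (edgeR adjusted p = 0.0254), in a fit that called 8.04% of all genes. Soy was above M + E2 by 0.68 ± 0.28 (interval 0.07 to 1.29, edgeR adjusted p = 0.337), and M + G differed from Milk by −0.54 ± 0.28 (interval −1.15 to 0.07). TEK was lower in M + G than in the same-numbered Milk library for each of the 3 numbers, although the labels do not state a pairing. With the number as a block the difference was −0.53 ± 0.17, under an unadjusted p of 0.05 but with an adjusted p of 0.746 in edgeR's quasi-likelihood test. Without Milk 2, Soy 3 and M + G 2 together, M + E2 against Milk was −0.57 and Soy against M + E2 was 0.40, neither of them called.

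For the VEGF axis and the junction genes, the formula diets could not be told apart at this depth and number of libraries. KDR differed by at most 0.14 on the log2 scale in size in any of the 6 comparisons, with standard errors of 0.21, and VEGFA by at most 0.22, with standard errors of 0.20. For CDH5 and FLT1 the differences were within 1 SE in each comparison when all libraries of these diets were used. Without Milk 2, Soy 3 and M + G 2, CDH5 was lower in Soy than in each other formula diet. The log2 differences were −0.61 ± 0.26 against M + G, −0.54 ± 0.24 against M + E2 and −0.42 ± 0.26 against Milk. In Soy against M + G, FLT1 was then −0.40 ± 0.30 and KDR −0.37 ± 0.23. None of these differences was called, and comparisons not involving Soy stayed within 1 SE for CDH5 and FLT1. PECAM1 was lower in M + E2 than in Milk by a log2 difference of −0.52 ± 0.33 (interval −1.22 to 0.19), and this became −0.11 without Milk 2.

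**Figure D3:**
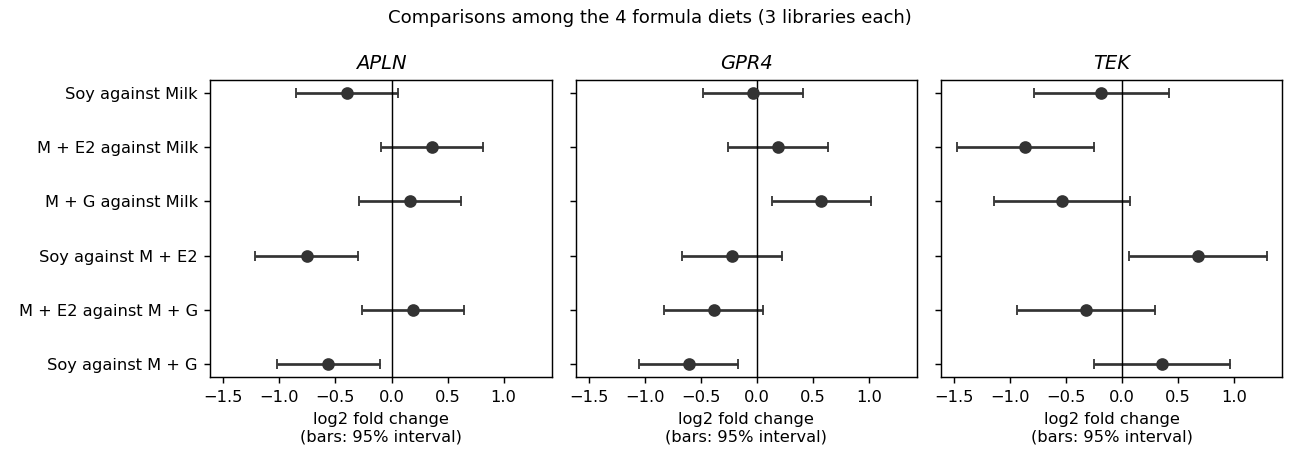
Log2 fold changes of APLN, GPR4 and TEK in the 6 comparisons among the formula diets (3 libraries each, bars are 95% intervals). The interval of APLN in Soy against M + E2 runs from −1.21 to −0.30, that of GPR4 in M + G against Milk from 0.13 to 1.02 and that of TEK in M + E2 against Milk from −1.48 to −0.25; none of these comparisons was called after adjustment over all genes.

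Because the genes are read in whole tissue, each was also set against other endothelial transcripts of the same library. Of a list of 30 endothelial identity genes, which holds none of the 9, 28 were in the table, led by VWF (a clotting factor of vessel walls), ENG (a co-receptor for TGF-beta) and CD93. Their summed level was lowest in Sow, at 834 to 1054 CPM. It was 1352 to 2568 CPM in the Milk libraries, 1129 to 2517 CPM in those of Soy, 1456 to 1836 CPM with estradiol and 1506 to 1957 CPM with genistein. Per 100 CPM of this sum, APLN was 3.36, 4.26 and 2.75 CPM in Sow and 5.01, 8.24 and 6.33 CPM in M + E2. In Milk it was 5.86, 3.00 and 5.18 CPM, in Soy 4.95, 5.45 and 2.29 CPM, and in M + G 6.19, 4.08 and 6.20 CPM. The lowest values of Milk, Soy and M + G were those of Milk 2, Soy 3 and M + G 2, and all 3 lay within or below the range of Sow, unlike the CPM of APLN itself.

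On the same scale GPR4 was 0.280 to 0.506 CPM in Sow and 0.636 to 0.793 CPM in M + G. KDR overlapped in all diets, with means from 3.48 ± 0.619 CPM in Sow to 4.14 ± 0.804 CPM in M + G per 100 CPM. Per endothelial level, the mean of 4 genes (PECAM1, TEK, VEGFA and ESM1) was highest in Sow, whereas the mean CPM of PECAM1 and VEGFA was lowest there. The PECAM1 ratio was 12.4 to 13.3 CPM in Sow, 11.7 to 12.04 in Soy, 9.11 to 12.2 in Milk, 10.2 to 11.5 in M + G and 8.57 to 9.54 in M + E2, and that of TEK was 2.06 to 3.12 CPM in Sow and 0.982 to 1.54 CPM in M + E2. An exact permutation test of these ratios over the 4 formula diets (one-sided, 369600 arrangements) passed for 0 of the 9 genes after adjustment over the 9. The smallest p-values were 0.0692 for PECAM1 and 0.100 for TEK (adjusted p = 0.451 for both), and the exact permutation p was 0.389 for APLN and 0.272 for GPR4. Without Milk 3, the library with the lowest PECAM1 ratio of its diet, PECAM1 passed the exact permutation test (p = 0.00273, adjusted p = 0.0245). The p-values also depended on how the endothelial level was taken. With the mean of log2(CPM + 1) over the list and all 12 libraries, the exact permutation p was 0.248 for PECAM1 and 0.0521 for TEK. With the sum of PECAM1 and CDH5 as that level it was 0.208 for PECAM1 and 0.134 for TEK.

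**Figure D4:**
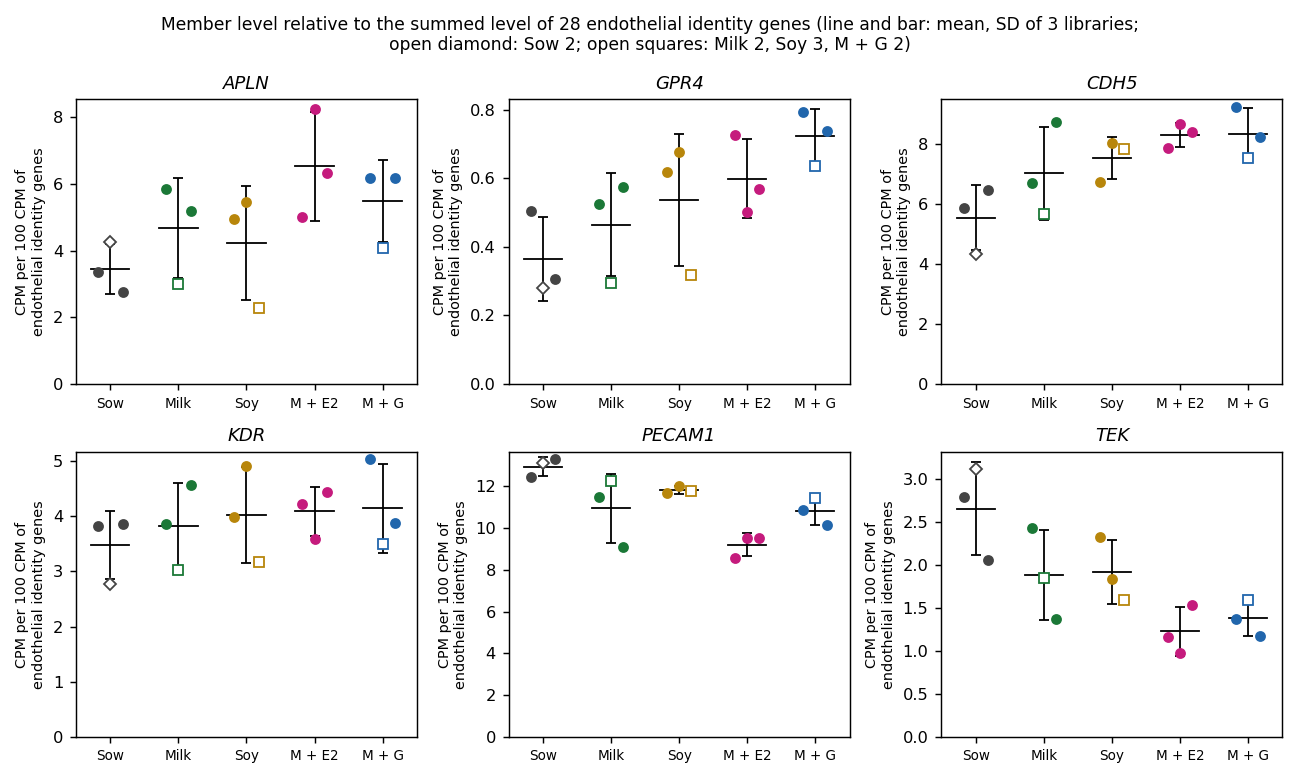
Levels of 6 of the genes per 100 CPM of the summed level of 28 endothelial identity genes (vertical axes, linear from 0) in each library by diet, with the mean and SD of 3 libraries; symbols as in the plot of CPM. The PECAM1 ratio is 12.4 to 13.3 in Sow and 8.57 to 9.54 in M + E2, and for APLN the open squares of Milk, Soy and M + G are the lowest of their diets.

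Most endothelial identity genes had positive log2 fold changes relative to Sow, 22 (M + E2) to 25 (Milk) of 27 tested, against 50.2% to 51.6% of all genes. The medians were 0.43 with estradiol and 0.68 (Soy) to 0.79 (Milk) in the other diets, while the median over all genes was between 0.00 and 0.02. VWF had log2 fold changes of 1.23 to 1.56 (SE 0.61), ENG of 1.06 to 1.18 (SE 0.40) and CD93 of 1.13 to 1.35 (SE 0.36). All of these lay above the list medians. MMRN1 (−0.83 to −0.28, SE 0.31) and ADGRL4 (−0.43 to −0.17, SE 0.25) were negative in all 4 formula diets. Without Milk 2, Soy 3 and M + G 2 these medians were 0.67 in Milk, 0.20 in Soy and 0.49 in M + G. Only ROBO4, an endothelial guidance receptor, was called (1.34 ± 0.29 in M + E2, where 5% of all genes were called). In Sow, VWF was 45.0 to 107 CPM, and in M + E2 211 to 312 CPM.

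The pathway partners did not all stand above Sow. Of 7 tested partners of apelin and proton sensing, among them the adrenomedullin receptor parts CALCRL and RAMP2 and their ligand ADM, 3 (M + E2) to 6 (Milk) had a positive value, and the medians ran from −0.07 in M + E2 to 0.35 in Milk (0.15 without Milk 2, Soy 3 and M + G 2). RAMP2 was 83.1 ± 5.91 CPM in Sow and 83.5 ± 6.78 CPM in M + E2 (SD, n = 3), and ADM was 11.2 ± 3.66 and 6.42 ± 1.44 CPM. In the VEGF family (6 genes tested) the medians ran from 0.30 in Soy to 0.49 in M + E2, and those of Milk and Soy were 0.16 and 0.11 without these 3 libraries. The co-receptor NRP2 had log2 fold changes of 0.69 to 0.90 (SE 0.25), NRP1 of −0.02 to 0.30 (SE 0.23), and FLT4, the receptor of lymphatic endothelium, of 0.62 to 1.01 (SE 0.28). None of these genes was called in any of the 10 comparisons.

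The angiopoietin and TIE list (6 tested), with ANGPTL4, TIE1 and ANGPT4 at its head, had medians between 0.32 and 0.39, and 0 of its genes were called. TIE1, the orphan partner of TEK, had log2 fold changes from 0.91 to 1.11 (SE from 0.32 to 0.33), in contrast to −0.35 to 0.52 for TEK, and ANGPT4, a ligand of TEK, from 0.36 to 0.75 (SE 0.22). For 13 tested genes of Notch signalling and sprouting, medians ran from 0.54 in Milk to 0.67 in M + G, and without the 3 libraries the lowest was 0.17 in Soy. NID2, a basement membrane protein (1.14 ± 0.30), and HEY2, a Notch target (1.25 ± 0.23), were called in M + E2, where 5% of all genes were called. JAG1 and HEYL were not called in any diet. Negative in all 4 formula diets were HEY1 (−0.71 to −0.33, SE 0.34), CXCR4 (−0.81 to −0.42, SE 0.32) and KCNE3 (−0.88 to −0.52, SE 0.36). In M + E2, 8 of the 13 genes were positive in the fit without the 3 libraries. NID2 was 141 to 184 CPM in Sow and 409 to 432 CPM in M + E2.

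Hypoxia-responsive genes did not stand above Sow. Of 19 tested, 6 (M + E2) to 9 (Milk and M + G) had positive values. The medians were −0.02 for Milk and −0.03 for Soy, against −0.27 with estradiol and −0.23 with genistein, and 0 were called by edgeR's test. PGK1, a glycolytic enzyme, had log2 fold changes of −1.06 ± 0.32 in M + E2 and −0.33 to −0.56 in the other diets, BNIP3 from −0.29 to 0.11 (SE 0.26), and EPAS1, the endothelial HIF subunit, from 0.67 to 0.85 (SE 0.43).

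Mural cell markers, which mark the smooth muscle and pericytes around vessels, had medians of 1.00 in Milk, 1.09 in Soy and 1.09 in M + G but 0.14 in M + E2. The contractile genes ACTA2 and TAGLN, which peritubular cells also express, had log2 fold changes of 1.09 to 1.62 in the first 3 diets and of 0.09 ± 0.83 and −0.21 ± 0.86 in M + E2. Only PDGFRB, a receptor of pericytes, was called (1.29 ± 0.33 in M + E2, where 5% of all genes were called). Pericyte markers did not move together in M + E2: CSPG4 was 1.68 ± 0.53, but RGS5 was −0.97 ± 0.23 and KCNJ8 −0.76 ± 0.30. In the fit without Milk 2, Soy 3 and M + G 2, 8 of the 14 mural markers were positive in M + E2. Without Milk 2, Soy 3 and M + G 2 the medians were 0.78 in Milk, 0.09 in Soy and 0.34 in M + G. The summed level of the list was then 1528 and 1539 CPM in Milk, 938 and 1158 CPM in Soy and 1259 and 1267 CPM in M + G, against 1068 to 1383 CPM in M + E2. Lymphatic markers (6 tested, led by CCL21) had medians between 0.16 and 0.47 with 0 genes called. Outside the vessel lists, 1 of 7 Leydig cell markers (STAR, −1.53 ± 0.41) and 1 of 5 erythroid markers (SLC4A1) were called in M + E2 relative to Sow, and 0 of the Sertoli cell, germ cell, macrophage and fibroblast markers. Erythroid markers, which mark blood held in the tissue, had medians of 1.04 to 1.71 relative to Sow. Their summed level was 498 to 578 CPM in Sow, 375 to 1486 CPM over the libraries of Milk, Soy and M + G, and 244 to 603 CPM in M + E2, where its mean was below that of Sow although the median log2 fold change was 1.23. Between the formula diets, 0 genes of these lists were called in any of the 6 comparisons.

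**Figure D5:**
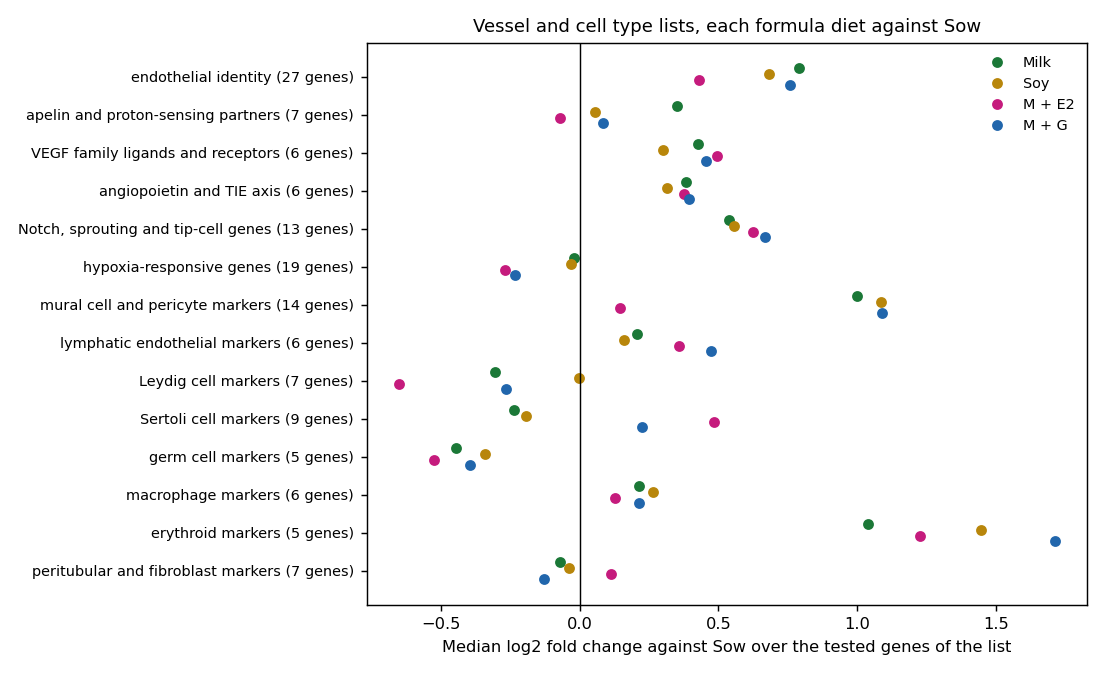
Median log2 fold change relative to Sow (horizontal axis) over the tested genes of each list (vertical axis) for the 4 formula diets. Endothelial identity lies between 0.43 and 0.79, mural cell markers between 1.00 and 1.09 (0.09 to 0.78 without Milk 2, Soy 3 and M + G 2) except 0.14 in M + E2, and hypoxia-responsive genes between −0.27 and −0.02.

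Without Milk 2, Soy 3 and M + G 2, log2 fold changes relative to Sow were 1.77 with estradiol, 1.67 with genistein, 1.46 in Milk and 1.05 in Soy for APLN, none of them below those of all libraries. For GPR4 they were 1.21, 1.58, 1.09 and 0.97. In the same order of diets they were 1.08, 1.14, 0.95 and 0.53 for CDH5 and 0.72, 0.86, 0.76 and 0.49 for KDR. FLT1 had 0.86, 0.88, 0.72 and 0.48, the last of which was 0.98 with Soy 3. PECAM1 had values of 0.16, 0.35, 0.27 and 0.15, and TEK of −0.35, −0.27, 0.23 and 0.06. For APLN and GPR4 the values thus stayed near those of the full fit, and for PECAM1 and TEK they moved towards 0 or below it in Milk, Soy and M + G. APLN, GPR4 and CDH5 were then called in M + E2 and 0 of the 9 in M + G, where 9.95% and 0.0521% of all genes were called.

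How alike the patterns were over the 15 libraries was described by the root mean square difference of log2 CPM, each gene centred on its own mean. Among the 9 genes, CDH5, FLT1 and KDR formed the closest group, with differences of 0.198 (CDH5 and FLT1), 0.202 (CDH5 and KDR) and 0.206 (FLT1 and KDR). PECAM1 was nearest to TEK (0.338), and APLN differed from GPR4 by 0.387. Of 12293 genes with a symbol, those nearest to APLN were DISP2 (0.272), N4BP3 (0.280), CA11 (0.299), MARVELD1 (0.302) and CHST1 (0.306), against a median of 0.713 over all. N4BP3 ran from 24.7 ± 2.69 CPM in Sow to 52.9 ± 9.46 in M + E2 and CA11 from 7.15 ± 0.705 to 17.3 ± 1.95 CPM, both with Soy as the lowest formula diet, like APLN. Such a shared order is in part built into the choice by likeness over the 15 libraries, those of Sow included, and nothing is read from it. DISP2 was read at 1.66 CPM or less. Nearest to GPR4 were SLC38A10 (0.261), EFCC1 (0.270), WFS1 (0.270), EMID1 (0.272) and FLT4 (0.272), against a median of 0.726. Of these, FLT4 is itself an endothelial receptor and had 20.6 ± 8.99 CPM in Sow and 52.9 ± 2.55 CPM in M + G, its highest diet.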

How the data were processed

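RNA of 15 testis libraries (5 diets, 3 each) was read as 36 bp single-end reads. The authors trimmed the reads below quality 25 and mapped them with CLC Genomics Workbench 20.01, first to a curated porcine gene library and then to Ensembl pig build 11.1. They deposited raw read counts per gene, without normalization, and whether the counts hold all reads of both steps is not given in the sources used here. The gene names are those of the table, with 6 list genes matched through a table of Ensembl identifiers. Groups were taken from the sample labels and the column names, and 0 columns were left unused.

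The counts were analysed here in R 4.3.3 with edgeR 4.0.16 (TMM, filterByExpr with a minimum count of 10, quasi-likelihood F test, a single fit of all 5 groups without Sow 2) and a prior count of 1 for log2 CPM. Whether libraries of a diet stand for separate piglets is not stated in the labels, and p-values measure the spread between these libraries. Genes were called at 2-fold or more and a p of at most 0.05 after Benjamini-Hochberg adjustment over the 15634 genes tested, the study's thresholds. Sow 2 was left out because the study excluded it for low correlations with other libraries. DESeq2 1.42.0 and edgeR's exact test, other filters and scaling, all 3 Sow libraries, single libraries left out and the replicate number as a block were alternatives. The scripts were tested on simulated data. Positions are those of RefSeq on Sscrofa11.1 by symbol. Counting error only is covered by the depth given.

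The genes and the lists were chosen with earlier results of these data known. Named are the 9 genes, of each list the 3 genes with the highest mean CPM, list genes called between formula diets (of which there were none), and the 5 genes most like APLN and like GPR4. ROBO4, MMRN1, ADGRL4, HEY1, HEY2, CXCR4, KCNE3, RGS5, KCNJ8, CSPG4, STAR and SLC4A1 were named after their values were seen. Same-numbered libraries of Milk and M + G deviated together from their group means (r = 0.231, 0.493 and 0.413 across genes). The numbers may therefore pair these diets, but the labels do not state a pairing. Milk 2 and M + G 2 were both high in fibroblast and mural markers, and the part of these markers in the r values was not tested. For M + E2 the values were lower, with r from −0.323 to −0.0589 against Milk and from −0.126 to 0.119 against M + G.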

Additional observations from a re-analysis of the deposited data

How the results depend on the processing

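Counts of the 9 genes called relative to Sow moved with the setting. In Milk the count went from 0 to 1 with all 3 Sow libraries, with DESeq2's Wald test and with edgeR's exact test, and was 0 to 1 with single libraries left out. In Soy it went from 0 to 1 with the Wald and exact tests. In M + E2 it went from 2 to 4 with all 3 Sow libraries and was 1 to 5 with single libraries left out. In M + G it went from 2 to 5 with all 3 Sow libraries, to 0 when at least 10 counts were asked of every library, to 0 without Milk 2, Soy 3 and M + G 2 (a setting chosen after seeing the data), and was 0 to 5 with single libraries left out. Called genes of the lists also moved, as did the share of all genes called, given in brackets. In M + E2 they went from 6 (5%) to 30 with all 3 Sow libraries (18.1%) and to 18 without the 3 libraries named (9.95%). In M + G they went from 0 (0.0576%) to 23 with all 3 Sow libraries (10.3%). In Soy against M + E2 they went from 0 (0.147%) to 1 without the 3 (0.534%). Between formula diets, the count for M + E2 against Milk was 0 to 1 with single libraries left out (TEK without Milk 3), and the count of ratios to endothelial genes past the threshold was 0 to 1 (PECAM1 without Milk 3).

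Of the single log2 fold changes relative to Sow under the alternatives, 765 shifted by less than the pooled SD between libraries of both diets. The other 27 shifted by more. This rule did not look at whether a gene was called, and calls relative to Sow moved as given above. Between formula diets 1137 kept their direction and their side of the threshold, 77 changed the sign of a value that was not called, and 1 passed the threshold. No called value changed its direction. With the replicate number as a block, 0 of the 9 genes were called in M + G against Milk, as without it (GPR4 0.58, TEK −0.53, edgeR adjusted p = 0.746 for both), nor in either comparison of M + E2 with these diets. Fits with the block were made only between diets in which every column carries a number, so not with Sow or Soy. The number of libraries limits the precision, and GPR4 and ESM1 were read at low depth.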
